A study of Mus musculus with 16 samples.

Results

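The caput epididymis of castrated mice given 1 injection of testosterone propionate was compared with the caput of sham-operated mice, to describe which transcripts a short androgen exposure had not brought back to the level of an intact animal. The comparison used 4 of the 16 arrays of the study: 2 labelled Caput epididymis TP treated and 2 labelled Caput epididymis sham-castrated, chosen by those titles. All mice were adult males of strain 129BL/6. The sham group had been sham-castrated, left for 14 days and injected with vehicle, which was 100 microL of 10% ethanol in sesame oil. The testosterone group had been castrated, left for 14 days and injected with 0.015 mg testosterone propionate, an esterified testosterone, in the same vehicle. Tissue was taken 12 hours after the injection in each group. The 2 castrated arrays with vehicle and the 2 castrated arrays with 0.015 mg estradiol from the same tissue are given beside them. The labels do not say whether the 2 arrays of a group came from separate animals, so p-values measure only the spread between these arrays. Those comparisons share arrays with the one described, so their values are set side by side and not tested against it. In bulk tissue, fewer cells of a type and less RNA per cell cannot be told apart.

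The caput is the first large region of the epididymis, where principal cells secrete proteins that coat and mature the sperm. It depends on the testis in 2 ways. Circulating androgen acts on the epithelium, and factors in the fluid that leaves the testis act from inside the duct, which is called lumicrine regulation. The proximal part, the initial segment, is known for its need of luminal factors, which act through the receptor tyrosine kinase ROS1 and ERK signalling on transcription factors such as ETV5. An injection of androgen into a castrated animal replaces the hormone, but neither the luminal fluid nor the sperm.

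The sham arrays carried the markers of the caput: the principal cell genes Lcn5 (11767 and 12020.5), Adam7 (8643 and 8372) and Gpx5 (8388 and 8586) were among the bright genes. Of 18193 genes measured with a probe set of their own, 13782 had a mean intensity above 16 in at least one of the 2 groups and are described here. The deposited values are linear intensities with no unit, and each gene is represented by its brightest probe set. At that limit Fbxw16 lay just inside at 16.001, and Foxn1 just outside at 15.99. Among the genes kept, 958 were above 16 in the sham group alone and 497 in the testosterone group alone. The scale of all differences is log2, testosterone minus sham, so that negative values are lower after testosterone. A gene was called when limma's p-value, adjusted by Benjamini and Hochberg over all 18193 genes, was below 0.05.

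Many genes of the caput differed from sham 12 hours after testosterone, and the far-reaching differences were falls. In all, 1605 of the 13782 genes were called (11.6%), 779 lower than sham (5.65%) and 826 higher (5.99%). A fold of at least 2 was reached by 501 of the falls and 360 of the rises. Further out, by fitted differences that keep values under background, 222 genes were at least 4-fold lower and 29 at least 4-fold higher. At 16-fold or more the counts were 78 and 2. Some of the genes counted have a fold that is given below only as a bound, such as Etv4. The 2 rises, Wdr31 and Doc2b, had mean sham intensities of 3.37 and 10.9. Over the same genes, 17.4% differed between castrated vehicle and sham (7.6% lower, 9.82% higher) and 1.96% between testosterone and castrated vehicle (0.689% lower, 1.27% higher). The falls from sham included secreted proteins of the initial segment, sperm transcripts and genes of ERK signalling. The split of calls moved with the scaling: with equal array medians 781 genes were lower and 518 higher, and the median difference of all genes was 0.06 before that step.

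The size of the call set rested on having 2 arrays in each group. Without sham replicate 1 or 2, 39 or 48 genes were called, and without testosterone replicate 1 or 2, 97 or 103. In total 25 genes were called in each of those 4 fits, 23 lower and 2 higher. Rnase10, Adam28, Pate5, Lypd8, Defb21, Actg2, Gper1, Inpp5d, Pla2g5, Pmel and P4ha2 were among the lower ones, and Scg5 and Gng4 were the higher ones. Every other call described by name was lost in at least 1 of those 4 fits. In those fits the lone array of a group is assumed to vary like the other groups. The array controls also differed between the groups. The 3' over 5' ratio of actin (log2) was 0.636 and 0.751 on the sham arrays and 1.08 and 1.20 on the testosterone arrays, and that of Gapdh was -0.509 and -0.481 against -0.207 and -0.140. These ratios rise as transcripts shorten, the groups did not overlap in either, and their part in the differences was not tested.

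**Figure D1:**
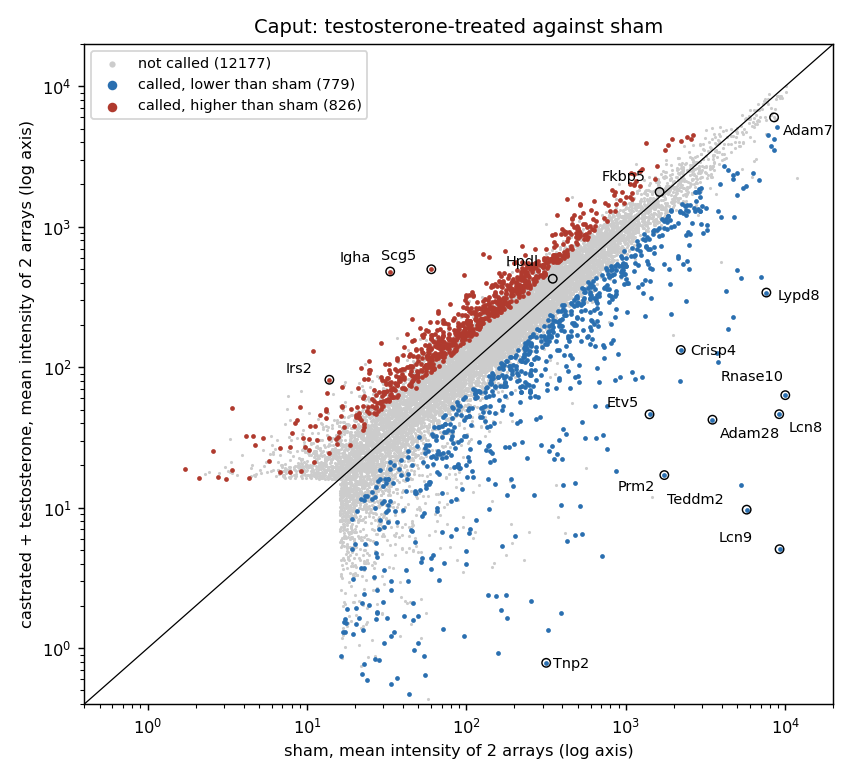
Mean intensity of each of 13782 genes on the 2 sham arrays (horizontal, log axis) against the 2 testosterone arrays (vertical, log axis), with the line of equality and the named genes circled. The 779 genes called lower reach far below the line, whereas the 826 called higher lie close above it.

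Some genes described below were near the castrated level and others near the sham level, and the promoters of 2 genes of each kind are shown. Further genes lay between or beyond these levels. The 2 low genes shown hold both motifs described here, whereas the windows of Lcn8 and Etv5, also near the castrated level, hold 0 matches to either. They cover 250 bases before to 50 bases after a RefSeq transcription start in GRCm38.p6. Capitals mark GGAAGT or its reverse complement ACTTCC, the core that ETS factors such as ETV5 bind, and AGAACA or its reverse complement TGTTCT, the core hexamer of androgen response elements. Rnase10 (chr14:51007501-51007800 on the plus strand, the first of 2 starts listed) and Lcn9 (chr2:25822903-25823202 on the plus strand) were near the castrated level. Hpdl (chr4:116821459-116821758 on the minus strand) and Eppin (chr2:164593522-164593821 on the minus strand) were near the sham level, although Eppin was called lower than sham.
Rnase10: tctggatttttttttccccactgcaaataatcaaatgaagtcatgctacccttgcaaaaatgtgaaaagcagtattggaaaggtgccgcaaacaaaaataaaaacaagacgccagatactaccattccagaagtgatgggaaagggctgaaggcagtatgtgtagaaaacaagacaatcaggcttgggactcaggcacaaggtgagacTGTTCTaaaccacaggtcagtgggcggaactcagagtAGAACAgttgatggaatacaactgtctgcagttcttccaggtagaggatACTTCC
Lcn9: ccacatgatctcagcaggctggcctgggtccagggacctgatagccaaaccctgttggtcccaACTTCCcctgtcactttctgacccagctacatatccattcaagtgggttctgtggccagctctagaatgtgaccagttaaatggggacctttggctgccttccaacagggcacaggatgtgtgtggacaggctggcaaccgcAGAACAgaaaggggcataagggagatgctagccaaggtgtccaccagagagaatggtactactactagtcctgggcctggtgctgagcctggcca
Hpdl: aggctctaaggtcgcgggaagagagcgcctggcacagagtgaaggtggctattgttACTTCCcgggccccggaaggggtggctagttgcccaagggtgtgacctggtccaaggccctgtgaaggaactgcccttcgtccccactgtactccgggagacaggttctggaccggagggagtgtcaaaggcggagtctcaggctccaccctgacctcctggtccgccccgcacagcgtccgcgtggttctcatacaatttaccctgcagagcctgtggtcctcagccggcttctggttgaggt
Eppin: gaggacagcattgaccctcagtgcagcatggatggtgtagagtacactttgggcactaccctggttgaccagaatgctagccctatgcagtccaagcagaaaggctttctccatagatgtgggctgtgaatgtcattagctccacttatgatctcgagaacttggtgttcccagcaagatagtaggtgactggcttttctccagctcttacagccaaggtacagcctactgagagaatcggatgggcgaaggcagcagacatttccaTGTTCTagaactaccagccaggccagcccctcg
Both motifs were searched on both strands, and they do not overlap each other in these windows. Of all 27025 genes with a promoter in the table, 24.1% held the ETS core and 19.0% the androgen hexamer in the first window listed. Among the 15 genes with the largest falls, 13 had a promoter there, 6 with an ETS core and 3 with a hexamer. Of the 19 initial segment genes called lower, 14 had one, 3 with an ETS core and 3 with a hexamer, which is 21.4% for each motif. Among the 10 genes back near sham, 8 had one, 1 with an ETS core and 1 with a hexamer. The full palindromic androgen response element, AGAACA and TGTTCT with 3 bases between them, was in 1 of all 27025 windows and in 0 of those of these genes. A match describes letters in a window, not a bound site.

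Secreted proteins, receptors and transcription factors of the initial segment were lower than sham, many of them by more than 10-fold. Of 26 measured genes in a list of initial segment and lumicrine genes, 25 were above 16, and 19 of them were lower than sham, 0 were higher (0 also at an unadjusted p below 0.05) and 6 were not called, beside 5.65% of all genes called lower by limma. Their median difference was -2.30, against 0.06 over all genes. It was -4.14 in castrated vehicle and -3.09 with estradiol, each against the same sham arrays. Taken gene by gene, the difference of testosterone from castrated vehicle had a median of only 0.13. In that comparison 2 of the 25 were called higher and 1 lower, beside 1.27% and 0.689% of all genes. The list was assembled with earlier results of these data known, so its direction is not independent evidence. Without sham replicate 1 or 2 the count of 19 became 3 and 3, and without testosterone replicate 1 or 2 it became 7 and 5.

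Rnase10, a secreted protein of the ribonuclease A family, stood at 10312 and 9692 on the sham arrays and at 59.3 and 67.3 on the testosterone arrays. It was at 24.4 and 29.7 on the castrated arrays and 67.8 and 92.6 on the estradiol arrays. The sham arrays stood far above the other 6, which lay together. The fitted fall from sham was 158-fold (log2 -7.31, 95% interval -7.82 to -6.80, adjusted p = 0.00235). The difference from castrated vehicle was 1.23 on the log2 scale with adjusted p = 0.0579.

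The lipocalins Lcn8 and Lcn9, which carry small lipophilic molecules, showed the same pattern. Lcn8 was at 9349.5 and 8970.3 in sham and 36.4 and 56.2 after testosterone, a 202-fold fall (adjusted p = 0.0103), beside 63.7 and 28.6 in castrated vehicle. Lcn9 went from 9128 and 9289 to 4.57 and 5.57, under background on both testosterone arrays, which makes it at least 879-fold lower (adjusted p = 0.00914). Background here is the highest of 27 Bacillus control probe sets on an array, 7.82 to 12.3 in the caput. Against castrated vehicle the log2 differences were 0.08 (95% interval -1.62 to 1.79) and 0.19 (-1.96 to 2.33), too wide to tell a small rise from none.

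Membrane and secreted proteins of the same region followed. Adam28, a metalloprotease gene, was at 3431 and 3557 in sham, 40.2 and 45.6 in castrated vehicle and 41.5 and 43.1 after testosterone, 82.6-fold under sham (adjusted p = 0.00309). Defb21, a beta-defensin, was at 3757 and 3664 in sham against 118 and 136, 29.3-fold lower (adjusted p = 0.00277). Spink2, a Kazal-type protease inhibitor gene, was 36.4-fold lower at 78.6 and 139 against 3859.9 and 3755 (adjusted p = 0.0146). Sham arrays were above every castrated array for all 3 genes. Teddm2, a membrane protein gene, went from 5803 and 5648 to 13.4 and 5.94, with 1 testosterone array above background (adjusted p = 0.00944). Rab26, a GTPase gene of secretory granules, went from 577 and 479 to 2.54 and 10.4, at least 50.2-fold lower (adjusted p = 0.0243).

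A second set of initial segment genes had fallen less far and was also below sham. Mfge8, a secreted protein that binds membranes, was at 6789 and 6954 in sham, 2169 and 2495 in castrated vehicle and 2242 and 2075 after testosterone (log2 -1.67, adjusted p = 0.00914). Lcn2, an iron-scavenging lipocalin gene, was at 4641 and 5569 against 9119 and 8601 (log2 -0.80, adjusted p = 0.0323). Gpx5, the epididymal glutathione peroxidase that protects sperm lipids, was at 3648 and 4722 against 8388 and 8586, 2.04-fold lower with adjusted p = 0.0481. The cystatin gene Cst11 was at 1939 and 2871, beside 6442 and 6086 in sham and 4177 and 4742 in castrated vehicle (adjusted p = 0.0318 against sham). These 4 genes remained bright and differed from sham by between 1.74- and 3.19-fold. Cda, cytidine deaminase, and the semaphorin gene Sema7a completed the list of falls (log2 -2.16 and -1.69).

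Other members of that list were not called. Spink8 was at 7221 and 8932 against 7701 and 7955 in sham (log2 0.04, 95% interval -0.35 to 0.42), and Cst12 at 5471 and 5964 against 7629.6 and 7620.4. Lrcol1 was at 191 and 150.1 after testosterone, between 1745 and 2178 in sham and 0.803 and 11.0 in castrated vehicle (log2 difference from sham -3.53, adjusted p = 0.122). Defb41 was likewise between, at 2028 and 3150.1 against 5113 and 5536 and 199 and 275 (adjusted p = 0.0665 against sham). Spink10 had moved back and was still called: 2478 and 2578 in sham, 35.1 and 38.4 in castrated vehicle and 945 and 822 after testosterone, 2.87-fold under sham (adjusted p = 0.00958) and 24.0-fold over castrated vehicle (adjusted p = 0.00144).

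**Figure D2:**
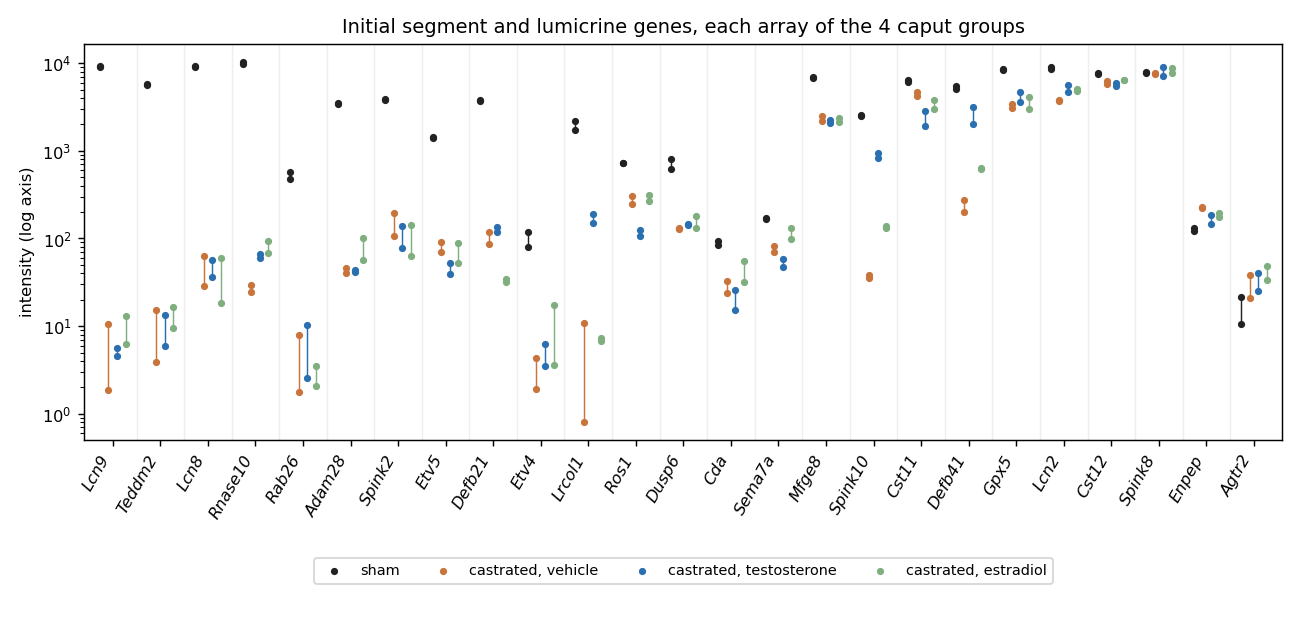
Intensity (log axis) on each of the 2 arrays of the 4 caput groups for the 25 initial segment and lumicrine genes above 16, ordered by the difference between testosterone and sham; a line joins the 2 arrays of a group. From Lcn9 to Etv4 the testosterone arrays lie with the castrated arrays, far below sham, while Spink10 and Defb41 lie in between.

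The signalling side of the initial segment was low as well. Etv5 was at 1429 and 1385 in sham, 90.3 and 70.0 in castrated vehicle and 39.2 and 53.2 after testosterone, 30.8-fold under sham (log2 -4.95, 95% interval -5.71 to -4.18, adjusted p = 0.00632). Its relative Etv4 went from 118 and 80.0 to 6.27 and 3.50, under background on both testosterone arrays and so at least 9.26-fold lower (adjusted p = 0.0422). The phosphatase genes Dusp6 and Dusp4, which switch ERK off and are induced by it, were 4.93- and 4.44-fold lower (adjusted p = 0.0114 and 0.0133). Dusp6 was at 146 and 141 after testosterone and 133 and 129.9 in castrated vehicle, against 813 and 615 in sham.

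Ros1, the receptor tyrosine kinase of the initial segment, was lower after testosterone than in castrated vehicle. It was at 735 and 726 in sham, 304 and 249 in castrated vehicle, 265 and 309 with estradiol and 106 and 126 with testosterone. The testosterone arrays were the lowest of the 4 groups, 6.33-fold under sham (adjusted p = 0.00694) and 2.38-fold under castrated vehicle (adjusted p = 0.0435). Over the 24 ERK target and feedback genes above 16, 7 were lower, 1 was higher and 16 were not called, beside 5.65% and 5.99% of all genes, with a median of -0.32. Of those lower, Etv4, Etv5, Dusp6 and Ros1 are also members of the initial segment list and were counted there. Besides them and Dusp4, Phlda1 (log2 -1.05) and Rasa1, a Ras GTPase activator (log2 -0.94), were lower. The higher one was the receptor gene Fgfr2 at 525 and 565 against 256 and 257, whose other probe set above 16 differed by -0.11. The feedback inhibitors Spry1, Spry2 and Spry4 were at log2 -0.33, -0.70 and -0.98 and were not called. Without sham replicate 1 or 2, 0 falls were called by limma (7 and 10 at an unadjusted p below 0.05), and without testosterone replicate 1 or 2 the count was 2 each time.

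Among secreted and sperm-coating proteins of the wider caput, some were part of the way back and others were near the castrated level. Of 30 measured genes of that list, 24 were above 16, of which 11 were lower than sham, 0 were higher (1 at an unadjusted p below 0.05) and 13 were not called, beside 5.65% of all genes called lower. The median was -1.12 after testosterone, -1.93 in castrated vehicle and -2.37 with estradiol, each against the same 2 sham arrays. Gene by gene, testosterone differed from castrated vehicle by a median of 0.25. In that comparison 6 of the 24 were called higher and 0 lower, beside 1.27% and 0.689% of all genes. The 11 became 2 without either sham array, and 2 or 3 without testosterone replicate 1 or 2. The genes fell into 3 kinds by level.

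The first kind was near the castrated level. Pate5, a small secreted protein of the Ly6 family, was at 5495 and 5055 in sham, 26.6 and 37.3 in castrated vehicle and 13.4 and 15.8 after testosterone, 362-fold under sham (adjusted p = 0.00235). Lcn5, the lipocalin that binds retinoic acid, was at 1402 and 3042 on the testosterone arrays against 11767 and 12020.5 in sham and 2215 and 2289 in castrated vehicle. Its testosterone arrays differed by more than 2-fold, and it was not called (log2 -2.53, 95% interval -4.19 to -0.86, adjusted p = 0.0738). Npc2, a cholesterol-binding secretory protein, was at 4208 and 4765 against 7622 and 7953 in sham and 4763 and 4788 in castrated vehicle (adjusted p = 0.0258 against sham).

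The second kind was above castrated vehicle and still far below sham. Lypd8, another Ly6 family gene, was at 7389 and 7833 in sham, 36.4 and 33.8 in castrated vehicle and 287 and 393 after testosterone. It was 9.57-fold above castrated vehicle (adjusted p = 0.0133) and 22.7-fold under sham (adjusted p = 0.00277). Crisp4, a cysteine-rich protein that binds sperm, was at 2007 and 2415, 22.3 and 26.1 and 105 and 161 in the same order, 17.0-fold under sham (adjusted p = 0.0098) and 5.38-fold over castrated vehicle (adjusted p = 0.0477). Lcn12 was at 2003 and 1773, 42.5 and 51.0 and 366 and 413, 4.85-fold under sham (adjusted p = 0.0165) and 8.36-fold over castrated vehicle (adjusted p = 0.0149). For these genes the testosterone arrays did not overlap the castrated arrays. They did not overlap the sham arrays either, which was a condition of the rule for naming list members. Estradiol arrays stood at 31.6 and 27.3 for Lypd8, 55.6 and 32.0 for Crisp4 and 38.1 and 24.7 for Lcn12.

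The third kind was closer to sham. Spink5, a protease inhibitor gene, was at 1092 and 1037 against 2448 and 2764 in sham and 103 and 67.2 in castrated vehicle, 2.44-fold under sham (adjusted p = 0.0395). Eppin, a protease inhibitor on the sperm surface, was at 1779.7 and 1782 against 2919.5 and 2564 and 201 and 219, 1.54-fold under sham (adjusted p = 0.0464). Adam7, a membrane protein passed to sperm, was at 5299.9 and 6705 against 8643 and 8372 and 219 and 291, and was not called against sham (log2 -0.51, 95% interval -1.01 to -0.01). Cuzd1 was at 6775 and 8152 against 7636 and 7975 (log2 -0.07, 95% interval -0.45 to 0.30).

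Beta-defensins, antimicrobial peptides made along the duct, were mixed. Of 17 measured, 14 were above 16, 4 were lower (Defb21 among them), 0 were higher (3 at an unadjusted p below 0.05) and 10 were not called, beside 5.65% of all genes called lower, with a median of -1.54. Defb35 was at 6237 and 3691 in sham, 2602 and 2975 in castrated vehicle and 448 and 535 after testosterone, 9.79-fold under sham (adjusted p = 0.00958) and 5.68-fold under castrated vehicle (adjusted p = 0.0312). Its estradiol arrays were at 484 and 437. Defb13 and Defb15 were 18.1- and 12.5-fold under sham (adjusted p = 0.025 and 0.0318). Defb42 was at 5261 and 6291 against 6795 and 6684 in sham and 3377 and 3048 in castrated vehicle, and was not called against sham (log2 -0.23, 95% interval -0.69 to 0.23).

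Sperm and germ cell transcripts were low on the arrays of all castrated groups. Of 39 measured, 35 were above 16, of which 13 were lower, 0 were higher (1 at an unadjusted p below 0.05) and 22 were not called, beside 5.65% of all genes called lower, with a median of -4.04. The summed intensity of the 39 was 12771 and 4184 on the sham arrays, 646 and 677 on the testosterone arrays, 764.5 and 736 in castrated vehicle and 1247 and 655 with estradiol. The 2 sham arrays differed in this respect: 32 of the 35 genes were higher on sham replicate 1 than on sham replicate 2, with a median ratio of 2.65, against 0.994 over all genes. On the testosterone arrays 14 of the 35 were under background on both arrays.

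Prm2, a protamine that packs sperm DNA, was at 2939 and 546 in sham and 23.3 and 10.8 after testosterone (log2 -6.32, 95% interval -8.86 to -3.77, adjusted p = 0.0295). The transition protein gene Tnp2 was at 506 and 126 against 0.503 and 1.07, at least 24.1-fold lower, and the outer dense fibre gene Odf1 at 985 and 434 against 6.20 and 2.82, at least 62.4-fold lower. Crisp2, a sperm acrosome protein, was at least 28.7-fold lower. Prm1 was at 18.3 and 20.0 against 889 and 242 and was not called (adjusted p = 0.0542). Each group's 2 arrays lay on their own side for all of these genes, which was a condition for naming Tnp2, Odf1 and Crisp2. With any 1 of the 4 arrays left out, 0 of them were called by limma (19 to 27 of the 35 genes were lower at an unadjusted p below 0.05), and the adjusted p of Prm2 was 0.0631 to 0.118.

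Enzymes of cholesterol synthesis, the pathway that supplies sterols for membranes, had a median between the castrated and the sham level. Of 19 measured, 2 were lower than sham (9 at an unadjusted p below 0.05) and 17 were not called. The 2 are 10.5% of the list, beside 5.65% of all genes called lower. The median was -0.69 after testosterone, beside -1.43 in castrated vehicle and -1.51 with estradiol. In the comparison of castrated vehicle with sham 14 of the 19 were lower, where 7.6% of all genes were. Tm7sf2, a sterol reductase gene, was at 73.9 and 96.7 against 502 and 458 in sham and 63.4 and 70.9 in castrated vehicle, 5.67-fold under sham (adjusted p = 0.00823). Nsdhl, a sterol dehydrogenase gene, was at 808 and 881 against 1392 and 1334 and 292 and 319.7, 1.61-fold under sham (adjusted p = 0.0323). Hmgcs1 and Fdft1 were close to sham, at log2 -0.03 (95% interval -0.45 to 0.39) and 0.00 (-0.35 to 0.36). The other probe sets of Hmgcs1 differed by 0.39, -0.08, -0.41 and 0.47, and the other one of Fdft1 above 16 by -0.30. In a list of lipid synthesis and transport, 3 of 27 were lower, 11.1%, beside the same 5.65% of all genes. They were Scarb1, the receptor for high-density lipoprotein (254 and 232 against 721 and 661), Lrp8 and Elovl6. The other probe sets of Elovl6 differed by -0.27 and 0.28.

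Genes of steroid action were called in both directions. Of 20 receptors and steroid enzymes above 16, 3 were lower and 1 was higher, 20% in all, beside 11.6% of all genes. Gper1, a membrane estrogen receptor gene, was at 161 and 137 in sham and 22.5 and 21.5 after testosterone, 6.76-fold lower (adjusted p = 0.00577). Cyp11a1, which makes pregnenolone from cholesterol, was at 20.9 and 22.3 against 99.2 and 107, and Cyp17a1 at 14.8 and 4.06 against 71.0 and 60.1 (adjusted p = 0.00865 and 0.0425). The glucocorticoid receptor gene Nr3c1 was at 426 and 444 against 278 and 259 (adjusted p = 0.0352), between sham and the castrated level of 638 and 591. A dimmer probe set of Nr3c1 went the other way, with means of 51.1 in sham and 29.5 after testosterone. The estrogen receptor gene Esr1 was at 822 and 1097 against 567 and 511 and missed the threshold (log2 0.82, 95% interval 0.34 to 1.30, adjusted p = 0.0578).

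A further group was near the sham level. These 10 genes had the largest castrated-to-sham difference among genes whose testosterone-to-sham interval lay within 1 log2 unit either way, so their closeness to sham is how they were chosen. Hpdl, a dioxygenase-like gene, was at 369 and 327 in sham, 3.93 and 3.41 in castrated vehicle, 12.6 and 9.75 with estradiol and 441 and 412 with testosterone. Cited4, a transcriptional co-activator gene, was at 333 and 337 against 343 and 301 in sham and 48.9 and 25.7 in castrated vehicle. Ccno, a cyclin of multiciliated cells, was at 401 and 369 against 294 and 287 and 43.9 and 36.2. In each of these the testosterone arrays were with sham or above it, while castrated arrays were far below. Estradiol arrays were far below too, at 80.0 and 87.3 for Cited4 and 52.7 and 49.2 for Ccno. Eppin, described above, was also chosen here, since its interval lay within that range although it was called lower.

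Lipg, the endothelial lipase gene, was at 742 and 727 against 736 and 748 in sham and a mean of 97.3 in castrated vehicle. A dimmer probe set of Lipg had a mean of 32.2 in sham and 3.26 after testosterone. Its estradiol arrays were at 788 and 422, so that both hormone groups lay above castrated vehicle. Suox, sulfite oxidase, was at 1859.6 and 1669 against 1288 and 1336 and 277 and 224, and the synaptotagmin gene Syt2 at 35.2 and 29.8 against 29.8 and 44.3 and 4.73 and 5.05. Other genes near sham were high in castrated vehicle. Slc8a1, a sodium-calcium exchanger gene, was at 22.2 and 24.4 against 25.1 and 22.5 and 163 and 172, and another probe set of it differed from sham by 0.60. The hormone gene Stc1 was at 139 and 155 against 138 and 183 and 978 and 1034, and the guidance molecule gene Slit2 at 242 and 261 against 190.4 and 233 and 1064 and 1286. Fkbp5, a chaperone gene widely used as an androgen target, was at 1819 and 1717 against 1540.2 and 1715 in sham and 602 and 557 in castrated vehicle (log2 0.12 from sham, 95% interval -0.19 to 0.43), and its other probe set above 16 differed by -0.46.

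**Figure D3:**
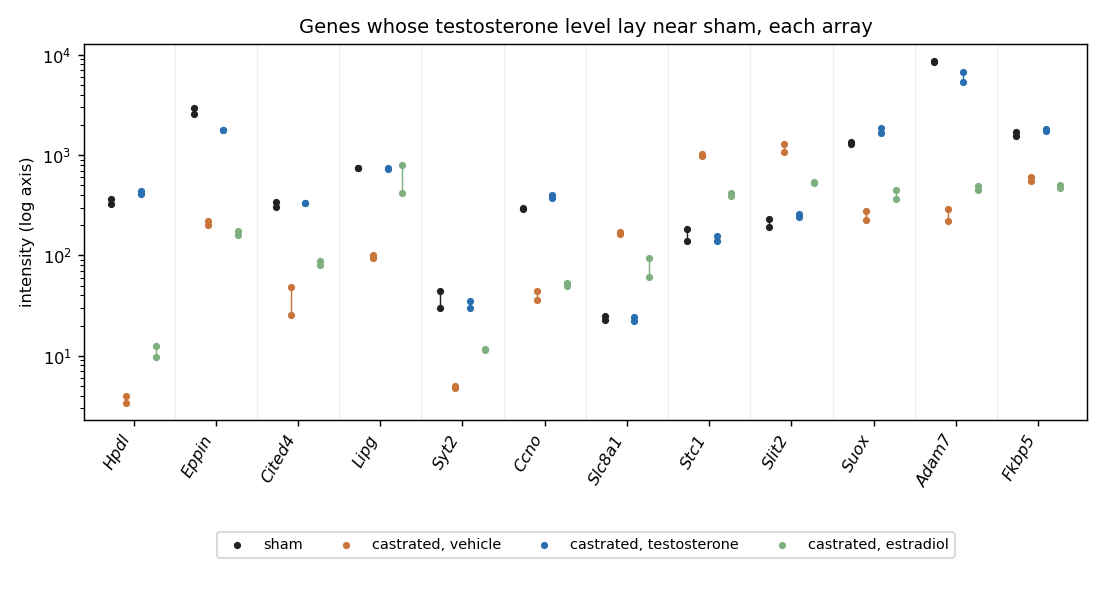
Intensity (log axis) on each array of the 4 caput groups for the 10 genes chosen as near sham, with Adam7 and Fkbp5; a line joins the 2 arrays of a group. Testosterone arrays lie beside the sham arrays for genes that were low (Hpdl to Ccno, Suox) and high (Slc8a1, Stc1, Slit2) in castrated vehicle, while estradiol arrays lie nearer to castrated for Hpdl, Eppin and Ccno.

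Few chaperones of the endoplasmic reticulum, which fold secreted proteins, differed from sham by the test. Of 36 measured genes of folding and its stress response, 0 were lower, 2 were higher and 34 were not called. At an unadjusted p below 0.05, 2 were lower and 10 higher. The 2 called higher are 5.56% of the list, beside 5.99% of all genes. The median was 0.17 from sham after testosterone, against -0.57 in castrated vehicle and -0.48 with estradiol. In the comparison with castrated vehicle 10 of the 36 were higher, where 1.27% of all genes were. Manf was at 3709 and 3555 against 4049.9 and 4056 in sham and 1739.8 and 1625 in castrated vehicle (log2 -0.16 from sham, 95% interval -0.43 to 0.11). Ssr1 was at 1691 and 1708 against 1666 and 1772 and 978 and 992 (95% interval -0.28 to 0.25). Dimmer probe sets of Ssr1 differed from sham by -0.60, 1.19 and -0.27. Herpud1, a degradation factor induced by unfolded proteins, was above sham at 2019.9 and 1967 against 1105 and 1143 (log2 0.83, adjusted p = 0.0209). Ern1, the sensor IRE1, was above sham at 1419 and 1469 against 846 and 887 (log2 0.74, adjusted p = 0.0378), with -0.50 and -0.11 in dimmer probe sets. Of 32 Golgi and secretory traffic genes, 2 were higher and 1 was lower: the retrieval receptor gene Kdelr3 (200.4 and 213 against 67.7 and 78.5, 2.84-fold), Creb3l2 (log2 0.67) and the cargo receptor gene Tmed3 (log2 -0.86). That is 6.25% higher and 3.12% lower, beside 5.99% and 5.65% of all genes.

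Genes above sham fell into 2 kinds by their castrated level. Those already high in castrated vehicle included Scg5, a chaperone of peptide-hormone processing, at 60.8 and 59.5 in sham, 883 and 915 in castrated vehicle and 501 and 495 after testosterone, 8.28-fold over sham (log2 3.05, 95% interval 2.73 to 3.37, adjusted p = 0.00277). The immunoglobulin alpha gene Igha was at 32.8 and 33.7, 396 and 709.5 and 341 and 619 in that order, 13.8-fold over sham (adjusted p = 0.0141). Galnt13, a glycosyltransferase gene, was at 5.97 and 12.0, 72.6 and 70.1 and 56.7 and 46.7 (at least 4.49-fold over sham, adjusted p = 0.0206), and Kif12, a kinesin gene, at 3.26 and 6.21, 193 and 181 and 22.1 and 33.4. Kif12 was at least 2.37-fold over sham (adjusted p = 0.0228) and below castrated vehicle (log2 -2.78, adjusted p = 0.0414). Scg5 differed from castrated vehicle by -0.85 (adjusted p = 0.0505). Wdr31 was at 55.8 and 46.6 against 1.76 and 4.98, but its other probe set differed by -0.02.

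Brighter genes of this kind, chosen after their values were seen, were likewise high in both groups. Gng4, a G protein subunit gene, was at 134 and 143 in sham, 748 and 738 in castrated vehicle and 608 and 612 after testosterone (log2 2.14, adjusted p = 0.00387). The lysosomal gene Ctsz was at 612 and 660.5 against 119 and 134 (adjusted p = 0.00958), close to its castrated level of 703 and 813. Other probe sets of Ctsz differed less from sham, by log2 0.87 and 0.53. Gm2a, also lysosomal, was at 1579 and 1549.9 against 400.2 and 457 (adjusted p = 0.00914), close to its castrated level of 1445 and 1523. Bcl2, the survival factor, was at 348 and 356, below 827 and 923 in castrated vehicle (adjusted p = 0.0213) and above 183 and 199 in sham (log2 0.88, adjusted p = 0.0224).

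The second kind had its highest levels after testosterone. Irs2, an adaptor of insulin signalling, was at 14.8 and 12.8 in sham, 20.6 and 32.7 in castrated vehicle and 91.2 and 71.6 after testosterone (log2 2.55 from sham, adjusted p = 0.0185, and 1.64 from castrated vehicle, adjusted p = 0.0761). Mthfd2, a mitochondrial folate enzyme gene, was at 438 and 475, 207 and 241 and 1205 and 1096, 2.52-fold over sham (adjusted p = 0.0399) and 5.15-fold over castrated vehicle (adjusted p = 0.029). Chosen after their values were seen, the chromatin remodeller gene Smarca1 was at 92.8 and 101, 80.6 and 92.1 and 502 and 401 (4.62-fold over sham, adjusted p = 0.0103). The lactate dehydrogenase gene Ldhd was at 1148 and 1519, 640.2 and 548 and 3912 and 3977 (2.99-fold, adjusted p = 0.0279), and the glutathione transferase gene Gstm1 at 1969 and 1909, 1927 and 1970.2 and 4114 and 4347 (2.18-fold, adjusted p = 0.0116). For Smarca1, Ldhd, Gstm1 and Mthfd2 the testosterone arrays were the highest of all 8 caput arrays. Their adjusted p against castrated vehicle was 0.015, 0.0203, 0.0226 and 0.029.

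**Figure D4:**
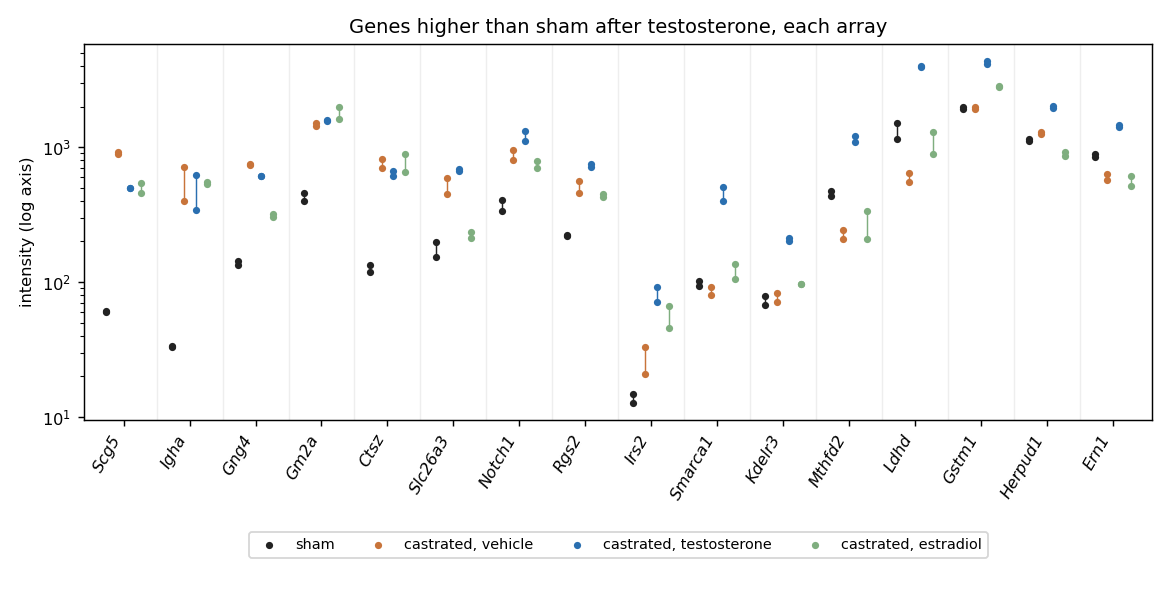
Intensity (log axis) on each array of the 4 caput groups for 16 genes called higher than sham after testosterone; a line joins the 2 arrays of a group. From Scg5 to Rgs2 castrated vehicle is also above sham, and from Irs2 to Ern1 the testosterone arrays are the highest group.

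Some genes of growth were higher than sham. Of 26 ribosome assembly genes, 5 were higher (5.99% of all genes were) and 0 lower (1 at an unadjusted p below 0.05), with a median of 0.40, and the 5 were Rrp9 (log2 2.24), Utp20 (1.10), Polr1b (0.93), Grwd1 (0.81) and Mybbp1a (0.56, with -0.11 in its other probe set). The median of these 26 was also above sham in castrated vehicle (0.20) and with estradiol (0.35). In castrated vehicle 4 of them were called higher than sham, where 9.82% of all genes were. Between testosterone and castrated vehicle 0 of them were called higher and 0 lower. Of 25 nucleotide and polyamine synthesis genes, 4 were higher and 0 lower (0 also at an unadjusted p below 0.05). Among the 4 were the uridine kinase gene Uck2 (log2 1.13) and Mthfd1 (1.06). The other probe sets of Uck2 above 16 differed by 0.94, 0.32, 0.09 and 0.14. Of 27 cell cycle genes, 3 were higher and 1 lower: the cyclin gene Ccnd2 at 727 and 667 against 289.9 and 337, the cell cycle inhibitor gene Cdkn1a at 320.4 and 318 against 97.4 and 122, the helicase gene Mcm7 at 487 and 571 against 241 and 274, and the mitotic cyclin gene Ccnb2, at 8.39 and 7.33 against 31.0 and 33.4 and so at least 3.07-fold lower. The cell cycle list had a median of 0.09. Other probe sets of Mcm7 differed less from sham, by log2 0.34, 0.44 and 0.20.

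Androgen response genes from other tissues were called at shares near those of all genes, 3 of 39 lower and 3 higher (7.69% each way), beside 5.65% and 5.99%. Slc45a3, Abcc4 and Dbi were lower (log2 -2.20, -2.03 and -1.22), and Pdk4, Tmprss2 and Rhou higher (1.78, 1.17 and 1.04). Slc45a3, a transporter gene, was at 96.7 and 90.9 against 448 and 415 in sham and 56.2 and 77.4 in castrated vehicle. Transport genes of the duct had 4 falls and 2 rises among 28, 14.3% and 7.14%, beside 5.65% and 5.99% of all genes. The ammonium channel gene Rhcg was part of the way back at 503 and 592 against 1642 and 1846 in sham and 62.2 and 38.4 in castrated vehicle (adjusted p = 0.0397 against sham and 0.0213 against castrated vehicle). The water and solute channel gene Aqp9 was at 138 and 128 against 356 and 389, the bicarbonate transporter gene Slc4a4 at 205 and 221 against 646 and 579.8, and the chloride channel gene Cftr at 88.4 and 78.0 against 155 and 187. The chloride exchanger gene Slc26a3 was higher, at 686 and 664 against 198 and 153.

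**Figure D5:**
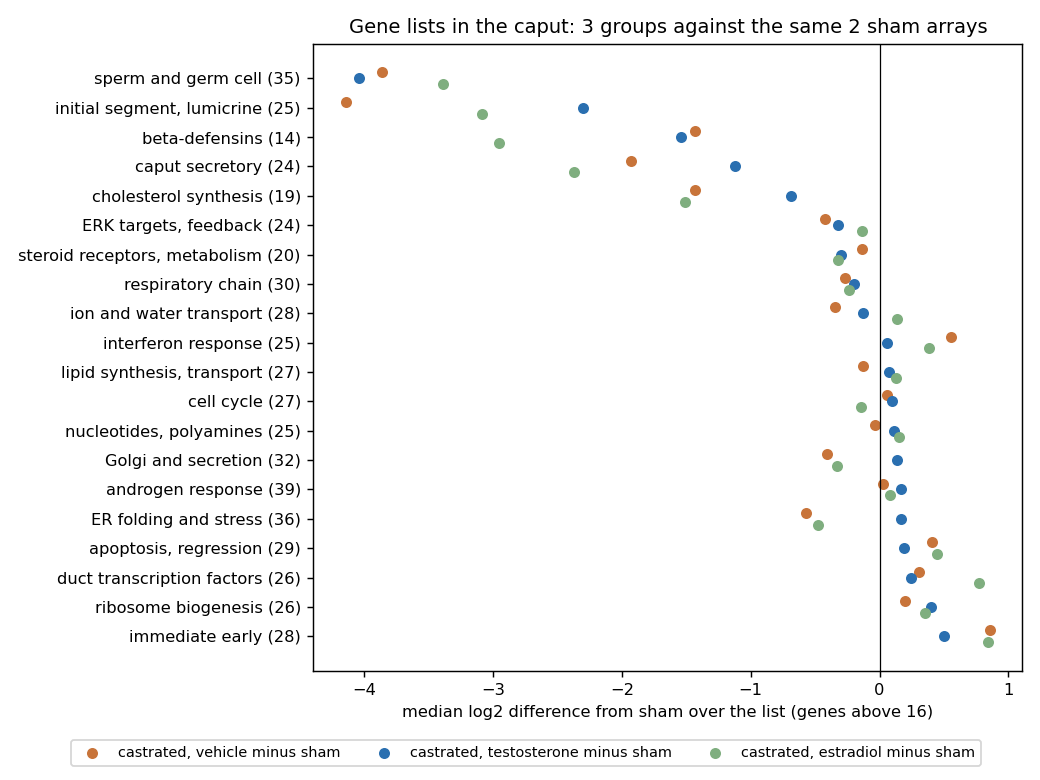
Median log2 difference from sham over each list (horizontal) for castrated vehicle, testosterone and estradiol, with the number of genes above 16 in brackets; all 3 use the same 2 sham arrays. Testosterone lies nearest to 0 for initial segment, cholesterol synthesis, caput secretory and interferon response genes, among others, and beside castrated vehicle for sperm genes. Gene by gene against castrated vehicle, which is not plotted, the median difference of testosterone was 0.13 for initial segment and 0.25 for caput secretory genes.

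Markers of the cell types in the tissue were set beside these results. Principal cell markers had 2 falls among 9, Gpx5 and Aqp9, which is 22.2%, beside 5.65% of all genes called lower. The summed intensity of the 9 was 37298 to 37911 in sham and 19353 to 23568 after testosterone. Its brightest members were the secretory genes Lcn5, Gpx5 and Adam7 (log2 -2.53, -1.03 and -0.51). The epithelial markers Epcam, Cdh1 and Cldn4 differed by 0.39, 0.07 and -0.04 and were not called. The epithelial keratin genes Krt8 and Krt18 were at 2071 and 2349 against 1665 and 1826 and 2628 and 2747 against 3099.8 and 3244, and neither was called. Of 7 basal cell markers, 0 were called by limma (3 higher at an unadjusted p below 0.05), where 11.6% of all genes were. Smooth muscle markers had 1 call among 12, a fall, which is 8.33%, beside 5.65% of all genes called lower. It was Actg2, the visceral smooth muscle actin gene, at 4982 and 4426 in sham, 210.3 and 178 in castrated vehicle and 249 and 206 after testosterone (20.7-fold lower, adjusted p = 0.00387). Acta2 and Myh11, the defining muscle genes, were at 3816 and 4412 against 3862 and 3699 and 1081 and 981 against 863 and 788, and were not called.

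Immune, stromal and ciliated cell markers were set beside the 5.65% of all genes called lower and 5.99% called higher. Macrophage markers had 2 rises among 23, Cd14 and Itgax, with a summed intensity of 5768 to 5968 in sham and 7385 to 7482 after testosterone. Lymphocyte markers had 2 rises among 9, Igha and Jchain (log2 2.16), which is 22.2% of them. Ciliated cell genes had a median of 0.88, and 19 of 21 were above sham in value. They had 3 rises and 1 fall, 19.0% in all (11 higher and 1 lower at an unadjusted p below 0.05), among them the regulator gene Foxj1 at 96.2 and 104 against 43.0 and 42.1 (log2 1.23, adjusted p = 0.0435) and Cfap53 at 97.7 and 95.1 against 193 and 215. Fibroblast markers had 1 rise among 19, the receptor gene Pdgfrb (log2 0.89), and endothelial markers 1 fall among 12, the receptor gene Flt1 (log2 -1.40). Of the 12 endothelial markers 10 were below sham in value and 2 above, with a median of -0.52. At an unadjusted p below 0.05, 4 of them were lower and 0 higher. Markers of the neighbouring efferent ducts had 1 rise among 7, Foxj1, while the endocytic receptor gene Lrp2 was at 87.8 and 137 against 81.4 and 67.0. Clear and narrow cell markers had 2 falls (Atp6v0d2 and Rhcg) and 2 rises (Atp6v1c2 and Foxi1) among 8, and adipocyte markers 1 fall among 7, Pck1. Leydig and Sertoli cell markers had 2 falls (Cyp11a1 and Cyp17a1) and 1 rise (Wt1) among 8. The part of cell composition in the other differences was not tested.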

How the data were processed

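RNA of whole caput epididymis was measured on one-colour expression arrays. The deposited values are linear intensities; the submitters' processing notes name RMA, but per the file headers nothing else is recorded, and the deposited intensities are not on a log scale and have trimmed means near 125 on every array (2% trimmed at each end). The study's normalization beyond that is not given in the sources used here. Of 45101 probe sets, 34958 had one gene symbol in the platform annotation, 932 several and 9211 none. Each of 18193 genes was taken from its brightest probe set over all arrays, and 9010 genes had more than 1.

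Values were put on the log2 scale and fitted with limma 3.58.1 in R 4.3.3 (lmFit and eBayes), with the 8 caput arrays in 4 groups sharing the spread, and Benjamini-Hochberg adjustment over all 18193 genes, at a threshold of 0.05. The fitting code was checked on simulated arrays with known changes. It recovered 9 of 100 changes of 2-fold and 69 of 100 changes of 4-fold, with 7 false calls. The simulation changed only 100 genes at each size among 18193, far fewer than the 1605 called in the data. With fewer changed genes the adjusted threshold is stricter, so these shares do not measure the sensitivity of the real comparison. A gene that was not called may still differ from sham by 2-fold. With 2 arrays a group, the 95% interval of genes above 16 had a median half-width of 0.471 on the log2 scale. Where both testosterone or both sham arrays were under background, a fold is a bound, the mean of the other group over the higher of background and the value itself. The members and gene lists were chosen with earlier results of these data known. Named genes were the 15 largest falls, the 15 largest rises and up to 6 members of each list by adjusted p. These were taken from called genes whose testosterone and sham arrays did not overlap. Some genes set by name and the 10 genes near sham were added. Not all are described, and others named are members of those lists or are said to be chosen after their values were seen. Alternatives changed the filter, floor, scaling, probe sets, variance prior, samples and replicate block. No batch was given in the labels used here.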

Additional observations from a re-analysis of the deposited data

How the results depend on the processing

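The number of calls depended strongly on the spread estimate and on single arrays, while the directions of named calls mostly held: of the named genes that were called 1 changed sign, Xiap (log2 -0.092 with all of its probe sets averaged, adjusted p = 0.862, against 0.57). Of the genes near sham, which were not called, Cited4, Lipg, Slc8a1, Stc1 and Syt2 changed sign around 0 under at least 1 alternative. Against 1605 calls (779 lower, 826 higher), there were 3581 (1398 and 2183) with the dimmest 40% of genes left out, 3120 (1423 and 1697) with genes above 16 alone fitted, 2760 (1311 and 1449) with values under 16 set to 16, and 3808 (1652 and 2156) with an intensity trend. There were 761 (470 and 291) with probe sets averaged per gene, 1330 (756 and 574) with quantile normalization, 1299 (781 and 518) with equal array medians, and 1482 (664 and 818) with all 16 arrays. Only the 4 arrays compared gave 7 calls by limma, 7 lower and 0 higher (1923 and 2324 at an unadjusted p below 0.05). Leaving out 1 array gave 39 to 103 calls, 29 to 98 lower and 5 to 14 higher.

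Of the initial segment genes 3 were lower with only the 4 arrays compared and 3 to 7 with 1 array left out, against 19. Of the caput secretory genes, against 11, there were 17 with genes above 16 alone, 6 with probe sets averaged, 18 with the trend, 4 with all 16 arrays, 1 with only the 4 arrays, 5 with the replicate block and 2 to 3 with 1 array left out. Of the ERK genes, against 7, there were 4 with all 16 arrays, 0 with only the 4 arrays (8 at an unadjusted p below 0.05) and 0 to 2 with 1 array left out. Of the sperm genes, against 13, there were 4 with the dimmest genes left out, 20 with genes above 16 alone, 23 with the trend, 0 with only the 4 arrays (25 at an unadjusted p below 0.05) and 0 with any 1 array left out. The cause of these differences was not tested, beyond the smaller number of samples or genes in those fits.

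Groups share replicate numbers, but same-numbered arrays did not deviate together (correlations of deviations -0.056 to 0.082 over genes), so the numbers were not taken as pairs. With the replicate block 547 genes were called, 330 lower and 217 higher. Dim genes limit the rest: 113 further calls lay at intensities under 16.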

Other observations

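Beyond these lists, several genes were lower after testosterone than in both the sham and the castrated vehicle group; they were picked after their values were seen. Ddit4l, an inhibitor of mTOR signalling, was at 2999 and 3058 in sham, 2398 and 2296 in castrated vehicle, 1531 and 1575 with estradiol and 888 and 931 with testosterone (log2 -1.74 from sham, adjusted p = 0.00632, and -1.37 from castrated vehicle, adjusted p = 0.0149). The crystallin gene Cryba4 was at 2555 and 2349.7, 3119 and 3074, 1752 and 1942 and 935 and 903 in the same order (adjusted p = 0.00958 against sham). The noncoding RNA gene Zfas1 was at 1503 and 1392, 901 and 745, 381 and 515 and 289 and 333 (adjusted p = 0.0109 against sham). In these 3 genes the estradiol arrays lay between the castrated vehicle and the testosterone arrays, and the testosterone arrays were the lowest of the 8.

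Among the 25 genes called with any 1 of the 4 arrays left out, some were far from sham and belong to no list used here. The melanosome gene Pmel was at 713 and 810.4 in sham, 27.6 and 38.1 in castrated vehicle and 28.1 and 24.7 after testosterone (28.9-fold lower, adjusted p = 0.00277). P4ha2, a collagen prolyl hydroxylase gene, was at 2073 and 2279, 70.6 and 50.8 and 86.6 and 73.4 (27.3-fold, adjusted p = 0.00387), and the phospholipase gene Pla2g5 at 476 and 488, 19.2 and 24.5 and a mean of 15.1 ± 0.0955 (SD, n = 2) (31.9-fold, adjusted p = 0.00489). Inpp5d, a lipid phosphatase gene of immune cells, was at 829 and 694, 49.0 and 61.4 and 53.4 and 52.2 (14.4-fold, adjusted p = 0.00298), while the pan-leukocyte gene Ptprc was at 149 and 166 against 107 and 99.8 in sham.

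Immediate early and duct transcription factor genes had calls in both directions, beside 5.99% of all genes higher and 5.65% lower. Of 28 immediate early genes, 4 were higher and 2 lower (9 and 2 at an unadjusted p below 0.05), with a median of 0.50, and the lower ones were Egr2 at 1356 and 1253 against 2371 and 2559 and Ier3 at 203 and 194 against 417 and 553. Of 26 duct transcription factors, 5 were higher and 1 lower: Foxi1, Tfcp2l1, Gata3, Emx2 and Nr2f1 rose (log2 1.02, 0.92, 0.88, 0.79 and 1.53) and Runx1 fell (log2 -1.64). Of 25 interferon response genes 1 was lower, Stat2 (log2 -1.05), and the median was 0.06 after testosterone beside 0.55 in castrated vehicle. Of 29 apoptosis and regression genes, 3 were higher and 1 lower, the protease gene Mmp7 at 55.5 and 112 against 404 and 359. Of 30 respiratory chain subunits 1 was lower, Ndufa1 (log2 -1.05), and 0 were higher (9 and 0 at an unadjusted p below 0.05). In value 22 of the 30 were below sham and 8 above, with a median of -0.20, against 0.06 over all genes.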
